A study of Mus musculus with 2 samples.

Results

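Venous-type endothelial cells of the mouse dental pulp were chosen by marker genes, without clustering. A barcode was kept with at least 500 genes, at least 1000 unique molecular identifiers (UMIs) and at most 10% mitochondrial UMIs. It was called endothelial with a UMI of at least 3 of the 6 genes Pecam1, Cdh5, Emcn, Egfl7, Tie1 and Esam, and with none of the leukocyte gene Ptprc, the glial gene Sox10 or the mural gene Notch3. It was called venous-type when the summed UMIs of Vwf, Selp, Aplnr and Slco2a1 exceeded both the sum of 5 arterial genes (Gja5, Stmn2, Mecom, Jag2, Vegfc) and the sum of 5 capillary genes (Esm1, Adamtsl2, Col13a1, Mcf2l, Cd300lg). This gave 68 of 128 endothelial cells (of 1683 kept cells) in the Vegfr2 knockout library, and 192 of 359 endothelial cells (of 2329 kept cells) in the control library, so 260 venous-type cells in all. The other endothelial cells were arterial-type (30 in knockout, 62 in control), capillary-type (21 in knockout, 92 in control), or had no list ahead (9 in knockout, 13 in control).

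The series holds 2 droplet libraries of 3′ tags from the pulp of C57BL/6 mouse teeth at postnatal day 12, made from dissociated cells that excluded propidium iodide, a dye that enters dead cells. In the knockout library the mice lacked Vegfr2, whose gene is Kdr, in endothelial cells, and the other library came from control mice. The promoter that drives the deletion, the alleles the controls carry and the number of animals in each library are not given in the sources used here. Each genotype has 1 library, so differences between the genotypes stand without replicates or tests. All intervals are exact, at 95%, and reflect only the error of counting.

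Venous endothelium lines the vessels that drain capillary beds. It is marked by the transcription factor Nr2f2 (COUP-TFII), it stores von Willebrand factor and P-selectin in Weibel-Palade bodies, and it is the main site where leukocytes leave the blood. VEGFR2 is the chief receptor through which VEGF-A drives endothelial division, survival and sprouting, and in sprouting beds of several tissues venous endothelium supplies cells to growing vessels.

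Venous-type cells made up nearly the same share of the endothelium in both libraries, while endothelial cells as a whole were a smaller share of the knockout library. They were 53.1% of endothelial cells in the knockout library (44.1 to 62.0%) and 53.5% in the control library (48.2 to 58.7%), a knockout over control ratio of 0.993 (0.742 to 1.32). Of all kept cells they were 4.04% in the knockout library (3.15 to 5.09%) and 8.24% in the control library (7.16 to 9.44%), a ratio of 0.490 (0.366 to 0.649). All endothelial cells together were 7.61% of kept cells in the knockout library and 15.4% in the control library, a ratio of 0.493 (0.400 to 0.605). Capillary-type cells were 16.4% of endothelial cells in knockout and 25.6% in control (ratio 0.640, 0.378 to 1.04). Arterial-type cells were 23.4% in knockout and 17.3% in control (ratio 1.36, 0.847 to 2.13), so both of these intervals included 1.

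**Figure D1:**
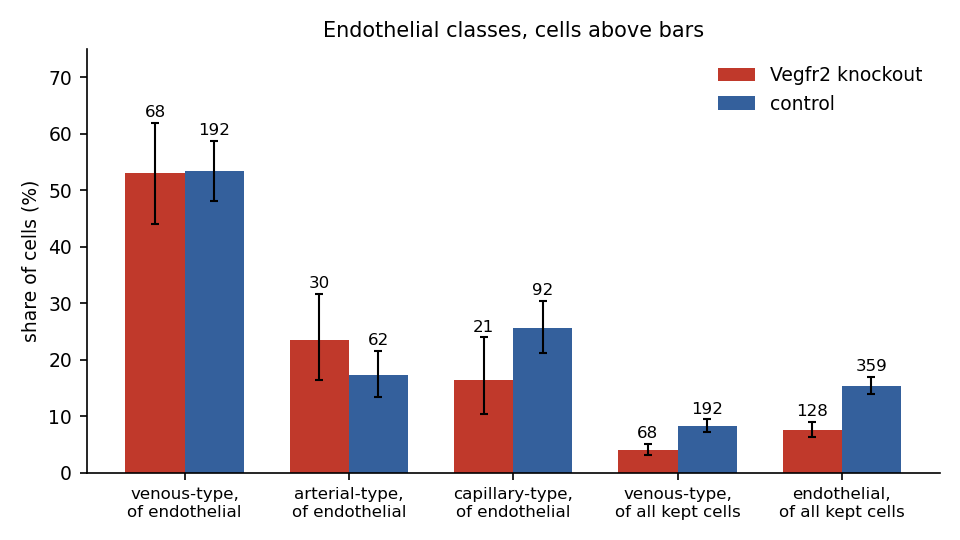
Shares of cells by class in each library, in percent, with exact 95% counting intervals as lines and the number of cells above each bar. The venous-type bars stand at 53.1% and 53.5% of endothelial cells in knockout and control, while the venous-type share of all kept cells is 4.04% in knockout and 8.24% in control.

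Depth differed between the genotypes in these cells, and more than in arterial-type or capillary-type cells. Venous-type cells held 470783 UMIs in knockout and 2583449 in control, with medians of 4653.5 UMIs and 2007.5 genes per cell in knockout and 10572.5 UMIs and 3535.5 genes in control. Arterial-type cells had medians of 7841 UMIs in knockout and 9253.5 in control, and capillary-type cells 6742 in knockout and 8897.5 in control. The median mitochondrial share was 4.98% in knockout and 4.5% in control, and ribosomal protein genes took 14.8% of venous UMIs in knockout and 18.2% in control. When every cell was thinned to 2000 UMIs before the rule was applied, venous-type cells were 48.1% of endothelial cells in knockout (50 of 104) and 48.2% in control (170 of 353), a ratio of 0.998 (0.713 to 1.38). The venous share of all cells then had a ratio of 0.424 (0.303 to 0.585). Shares of cells with a UMI of a gene are therefore given below for the venous cells thinned to 2000 UMIs, which leaves out the 20 knockout and 11 control venous cells that were shallower. 3 barcodes occurred in both libraries and none of them was a venous-type cell.

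The 4 venous markers chose the cells, so their levels here are a description and support nothing. Levels are given as UMIs of a gene per 1000000 UMIs summed over the class in a library (CPM). Vwf, von Willebrand factor, stood at 860 CPM in knockout and 613 CPM in control, with a UMI in 53 of 68 knockout and 126 of 192 control cells. Selp, P-selectin, which catches rolling leukocytes, stood at 665 CPM in knockout and 116 CPM in control, in 30 knockout and 49 control cells. Aplnr, the apelin receptor, stood at 493 CPM in knockout and 833 CPM in control, in 49 knockout and 180 control cells. Slco2a1, a prostaglandin transporter, stood at 342 CPM in knockout and 660 CPM in control, in 41 knockout and 166 control cells. Selp was therefore present in a minority of the cells of either library, and most control cells qualified through Aplnr and Slco2a1.

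Per cell, the 2 libraries overlapped for every marker. Among Vwf-positive cells the lowest, median and highest values were 1.17, 8.38 and 37.4 UMIs per 10000 in knockout, and 0.276, 6.12 and 84.3 in control. For Selp they were 0.590, 5.51 and 99.6 in knockout and 0.186, 1.87 and 24.5 in control, so the highest knockout cells lay above every control cell. For Aplnr they were 0.383, 6.71 and 44.1 in knockout and 1.07, 7.70 and 30.2 in control. When each cell was counted equally, Aplnr averaged 863 CPM in knockout and 876 CPM in control, so the gap was in the summed level and not in the mean over cells. After thinning, Vwf was found in 79.2% of knockout and 44.2% of control venous cells, and in 0.419% of knockout and 0.659% of control non-endothelial cells. Shares in non-endothelial cells, here and below, mix free RNA with any expression by those cells. That class also takes in barcodes with too few endothelial genes to be called endothelial. The level of free RNA itself was not measured. Selp was found in 41.7% of knockout and 11% of control venous cells, against 0.349% and 0.220% of non-endothelial cells in knockout and control. Aplnr was found in 47.9% of knockout and 72.9% of control venous cells, and Slco2a1 in 35.4% of knockout and 58.6% of control venous cells. In non-endothelial cells Aplnr was found in 0.0699% in knockout and 0.384% in control, and Slco2a1 in 0 of 1431 cells in knockout (exact upper bound 0.257%) and 0.110% in control.

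**Figure D2:**
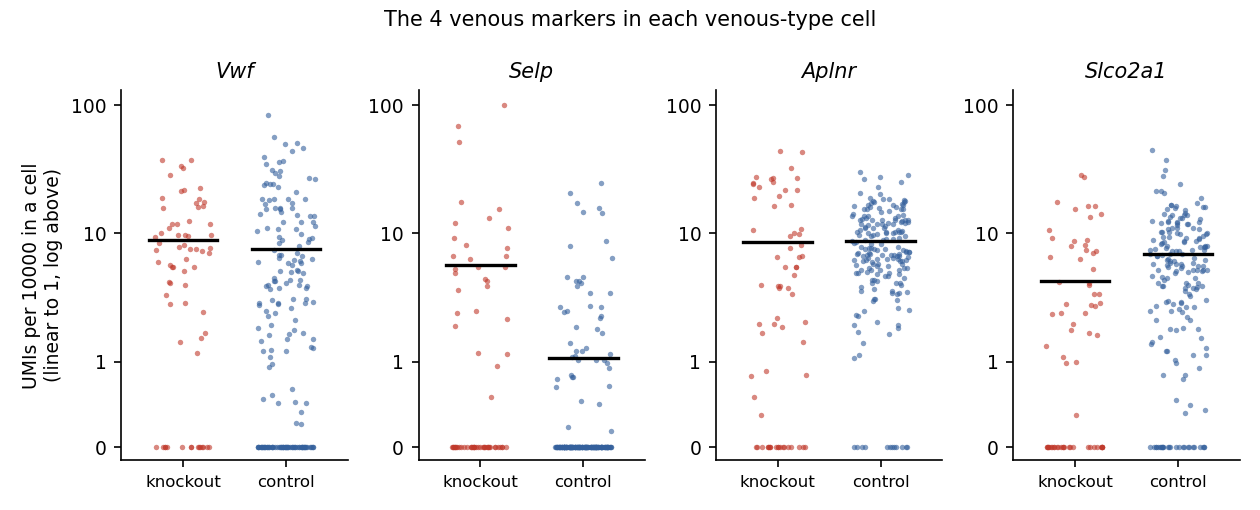
UMIs per 10000 of the 4 markers in each venous-type cell, on an axis linear to 1 and logarithmic above, knockout left of control, with a bar at the mean over cells. The highest knockout cell reaches 99.6 for Selp, against 24.5 in the control library, while the Aplnr means lie close together.

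The marker with the most UMIs in a cell also differed between the libraries. Vwf led in 32 knockout and 52 control cells, Selp in 7 knockout and 2 control cells, Aplnr in 22 knockout and 97 control cells, and Slco2a1 in 7 knockout and 41 control cells. Cells led by Vwf or Selp were thus 57.4% of venous cells in knockout (44.8 to 69.3%) and 28.1% in control (21.9 to 35.1%). Depth moved with this split: cells led by Vwf or Selp had a median of 5886 UMIs in knockout and 9066 in control, while cells led by Aplnr or Slco2a1 had 1818 in knockout and 11776.5 in control. Its part in the split was not tested. Ratios are therefore also given below within each of these subsets, which were defined after the data had been seen.

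The rule draws its line at a margin of 1 UMI over the larger of the other lists. That smallest margin was held by 8 knockout and 13 control venous cells, while 6 knockout and 12 control endothelial cells stood just outside at a margin of 0 and 7 knockout and 11 control cells at −1. The median margin was 7.5 UMIs in knockout and 16 in control. UMIs of at least 2 of the 4 markers were found in 55 knockout and 166 control cells, and of all 4 in 14 knockout and 44 control cells.

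Beyond the rule genes, the venous-type cells of both libraries carried genes that were sparse or not found in the other endothelial classes. Of 8929 genes with at least 50 UMIs over the 3 classes, 240 (2.69%) were at least 1.5-fold higher in venous cells than in both arterial-type and capillary-type cells of both libraries. In the knockout library alone 888 (9.95%) passed and in the control library alone 553 (6.19%). Because the cells were sorted into classes on the same UMIs, these levels are a description. Adgrg6, an adhesion G protein-coupled receptor, stood at 268 CPM in venous cells, 0 in arterial-type and 0 in capillary-type cells of the knockout library, and at 92.1, 0 and 0 CPM in the control library. Ackr1, the chemokine-binding receptor of venules, stood at 140, 0 and 6.73 CPM in the 3 knockout classes in the same order, and at 24.8, 0 and 0 CPM in the control classes. Net1, a guanine nucleotide exchange factor, was 12.5-fold higher in knockout and 9.18-fold higher in control venous cells than in the larger of the other classes. Tll1, a protease that cuts procollagen and activates BMPs, stood at 29.7 CPM in knockout and 35.2 CPM in control venous cells, and at 0 in both other classes of both libraries. Fmo2, a flavin monooxygenase, stood at 106, 0 and 6.73 CPM in the knockout classes and at 27.9, 2.70 and 0 CPM in the control classes. The other genes of the leading 12 were Frem2, Wnt5b, Lrrn1, Mme, Cysltr1, Ccne2 and Ltc4s, at 4.25 to 42.5 CPM in knockout and 11.2 to 37.9 CPM in control venous cells. Several rested on few knockout UMIs: 2 for Ccne2, 3 for Ltc4s, 6 for Mme and 9 for Lrrn1, with 66.7% of these 9 in 1 cell. The knockout intervals of Ccne2, Ltc4s and Mme included 1 against both other classes, so their venous excess stands on the control library. After thinning, Mme was found in 2.08% of knockout and 7.73% of control venous cells, against 4.68% of knockout and 6.32% of control non-endothelial cells. Cysltr1 was then found in 12.5% of knockout and 1.66% of control venous cells, against 5.17% of knockout and 6.81% of control non-endothelial cells.

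The genes known from the literature to mark veins followed unevenly. Nr2f2, the transcription factor that holds venous identity, stood at 378, 25.8 and 20.2 CPM in venous, arterial-type and capillary-type knockout cells, and at 378, 75.5 and 43.8 CPM in the control classes. Its summed venous level was the same in the 2 genotypes, with a knockout over control ratio of 1.00 (0.848 to 1.18). Within the subsets the Nr2f2 ratio was 0.670 in cells led by Vwf or Selp and 1.18 in cells led by Aplnr or Slco2a1. Nrp2, a co-receptor for VEGF-C and semaphorins, stood at 654, 58.9 and 195 CPM in the knockout classes and at 354, 89.0 and 210 CPM in the control classes. Ephb4, the ephrin receptor of veins, did not separate the classes: it was 0.957 and 1.04 times the larger of the other classes in knockout and control venous cells. Of the 13 genes of the venous list, 6, Nr2f2, Nrp2, Ackr1, Lrg1 and Tll1 among them, were at least 1.5-fold higher in venous cells in both libraries, and Slc38a5 had 0 UMIs in all classes. Il1r1 was 0.441 and 0.395 times, and Lifr 0.959 and 0.590 times, the larger of the other classes in knockout and control. On the same measure Bgn was at 3.55 times in knockout and 0.693 times in control, and Il6st at 2.14 and 1.10 times. The rule marker Slco2a1 stood at 342 CPM in venous and 316 CPM in capillary-type knockout cells. The venous label thus has Nr2f2, Nrp2 and Ackr1 behind it in both libraries, Bgn and Il6st in knockout only, and not Ephb4, Il1r1 or Lifr.

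Markers of other cells had low summed levels in the venous-type cells, but these were not equal between the genotypes. The mural list summed to 255 CPM in knockout and 70.1 CPM in control venous cells, and most of it was Tagln, a smooth muscle actin-binding protein, at 170 CPM in knockout and 7.74 CPM in control. The thinned share of cells with Tagln was 14.6% in knockout and 1.66% in control venous cells, against 12.3% and 11.9% of non-endothelial cells in knockout and control. The leukocyte list summed to 198 CPM in knockout and 92.9 CPM in control, the pulp mesenchyme list to 178 CPM in knockout and 129 CPM in control, and the Schwann list to 280 CPM in knockout and 478 CPM in control. The lymphatic list stood at 74.3 CPM in knockout and 77.4 CPM in control and the platelet list at 27.6 CPM in knockout and 89.4 CPM in control. Members at 0 UMIs were 4 of 11 mural genes in knockout and 2 in control, 3 of 7 lymphatic genes in knockout and 2 in control, and all 5 red cell genes in both. Venous cells of both sexes were in both libraries: 36 knockout and 123 control cells held UMIs of Xist alone and 20 knockout and 37 control cells of Y-linked genes alone. A further 2 knockout and 12 control cells held UMIs of both, and 10 knockout and 20 control cells of neither. Why some cells held both was not tested.

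Kdr, the targeted gene, remained detectable in the knockout venous cells. It had 276 UMIs (586 CPM) in 59 knockout cells and 1810 UMIs (701 CPM) in 174 control cells, a ratio of 0.837 (0.735 to 0.950). After thinning, 56.2% of knockout and 67.4% of control venous cells held a Kdr UMI, against 0.629% of knockout and 2.03% of control non-endothelial cells. In arterial-type cells Kdr stood at 309 CPM in knockout and 736 CPM in control (ratio 0.420, 0.33 to 0.529), and in capillary-type cells at 1762 CPM in knockout and 2227 CPM in control (ratio 0.791, 0.694 to 0.900). A 3′ tag counts transcripts whether or not they lack a deleted exon upstream, so these values do not check the knockout. Among venous cells led by Aplnr or Slco2a1 the Kdr ratio was 1.07, and among cells with Y-linked UMIs alone 0.662.

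Within venous cells, 7360 genes had at least 50 UMIs over both libraries. Of these, 917 (12.5%) were at least 1.5-fold higher and 1394 (18.9%) at least 1.5-fold lower in knockout, and the median log2 ratio was −0.07. These shares are the background for the lists below. The interval of the ratio excluded 1 for 730 of the higher and 769 of the lower genes. The 12 highest genes named by the rule include Edn1, Thbs1, Bmp6, Bmp4, Fgl2 and Ctgf, and the 12 lowest Knstrn, Cep55, Pclaf and Uhrf1.

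Edn1, which encodes endothelin-1, the peptide that constricts vessels, lies at chr13:42301476-42307990 on the plus strand of GRCm38. It had 227 UMIs in 29 knockout cells and 28 UMIs in 16 control cells. That was 482 CPM (421 to 549) in knockout and 10.8 CPM (7.2 to 15.7) in control, a ratio of 44.5 (30.0 to 68.5). Among positive cells the lowest, median and highest values were 0.475, 8.75 and 39.9 UMIs per 10000 in knockout, and 0.186, 1.32 and 2.23 in control, so the knockout median lay above the highest control cell. After thinning, 37.5% of knockout and 1.66% of control venous cells held an Edn1 UMI, against 0.140% of knockout and 0.0549% of control non-endothelial cells. Capillary-type cells had 202 CPM in knockout and 62.7 CPM in control, a ratio of 3.22 (2.01 to 5.05), and arterial-type cells went the other way with 210 CPM in knockout and 298 CPM in control, a ratio of 0.704 (0.516 to 0.945). In control Edn1 was thus highest in arterial-type cells, and in knockout highest in venous-type cells. In venous cells led by Vwf or Selp it had 225 UMIs in 27 knockout cells and 22 UMIs in 10 control cells (ratio 18.7), while among those led by Aplnr or Slco2a1 it had 2 UMIs (12.9 CPM) in knockout and 6 (2.99 CPM) in control, a ratio of 4.32.

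Thbs1, thrombospondin-1, a matricellular inhibitor of angiogenesis, lies at chr2:118111876-118127133 on the plus strand. It had 131 UMIs in 24 knockout cells and 14 UMIs in 8 control cells. That was 278 CPM (233 to 330) in knockout and 5.42 CPM (2.96 to 9.09) in control, a ratio of 51.3 (29.5 to 96.5). Among positive cells the lowest, median and highest values were 0.271, 3.23 and 23.8 UMIs per 10000 in knockout, and 0.229, 0.990 and 12.1 in control. The highest cells overlapped, but positive cells were far more frequent in knockout: 29.2% of knockout and 1.10% of control venous cells after thinning, against 14.2% of knockout and 7.63% of control non-endothelial cells. Non-endothelial cells themselves had 233 CPM in knockout and 68.5 CPM in control. In cells led by Vwf or Selp, Thbs1 had 107 UMIs in knockout and 1 in control, and in cells led by Aplnr or Slco2a1 24 in knockout and 13 in control.

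The BMP ligand genes differed among themselves. Bmp4, at chr14:46383520-46390669 on the minus strand, had 172 UMIs in 34 knockout cells and 89 UMIs in 36 control cells, or 365 CPM in knockout and 34.5 CPM in control, a ratio of 10.6 (8.16 to 13.9). Its lowest, median and highest positive cells held 0.271, 4.85 and 22.8 UMIs per 10000 in knockout, and 0.186, 1.06 and 6.94 in control. Bmp4 was low in the other endothelial classes, with 3.68 CPM in knockout and 16.2 CPM in control arterial-type cells and 6.73 CPM in knockout and 5.97 CPM in control capillary-type cells. Bmp6, a ligand that endothelial cells also secrete to regulate iron through the liver, had 46 UMIs in 18 knockout cells and 11 UMIs in 7 control cells, a ratio of 22.9 (11.7 to 49.1). Bmp2, another ligand gene, named after its values were seen, went the other way in venous cells, with 9 UMIs (19.1 CPM) in knockout and 116 UMIs (44.9 CPM) in control, a ratio of 0.426 (0.190 to 0.837). In both leading-marker subsets Bmp4 was higher in knockout, 5.56-fold in cells led by Vwf or Selp and 3.96-fold in cells led by Aplnr or Slco2a1.

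Fgl2, a membrane prothrombinase and immune regulator at chr5:21372642-21378374 on the plus strand, had 158 UMIs in 21 knockout cells and 78 UMIs in 25 control cells, 336 CPM in knockout and 30.2 CPM in control, a ratio of 11.1 (8.42 to 14.8). Its positive cells held 0.950, 7.51 and 37.4 UMIs per 10000 at the lowest, median and highest in knockout, and 0.276, 1.75 and 9.08 in control. It had 0 UMIs in arterial-type and capillary-type knockout cells, and 10.8 CPM and 0 UMIs in those control classes. Ctgf, a matricellular target of YAP and TGF-beta, stood at 631 CPM in knockout and 97.5 CPM in control, a ratio of 6.47 (5.45 to 7.68), in 32 knockout and 54 control cells. Fbln5, a fibulin needed for elastic fibre assembly, stood at 312 CPM in knockout and 48.8 CPM in control, a ratio of 6.4 (5.01 to 8.19). Arterial-type cells held more Fbln5 than venous cells in both libraries, at 957 CPM in knockout and 498 CPM in control.

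The other genes of the 12 highest were Cacna1e, a voltage-gated calcium channel subunit (93.5 CPM in knockout, 7.35 CPM in control, ratio 12.7), Casp4, the caspase that senses cytosolic lipopolysaccharide (76.5 CPM in knockout, 9.68 CPM in control, ratio 7.90), Neat1, a nuclear non-coding RNA (499 CPM in knockout, 72.4 CPM in control, ratio 6.90), the kinase gene Pim3 (586 CPM in knockout, 91.0 CPM in control, ratio 6.44) and Fosl2, a subunit of the AP-1 transcription factor (546 CPM in knockout, 89.0 CPM in control, ratio 6.13). Neat1 was also 3.20-fold higher in knockout non-endothelial cells and Pim3 2.26-fold, and the thinned share of venous cells with Neat1 (31.2% in knockout, 11% in control) lay below the non-endothelial share. Individual cells held many of the 12 genes at once. At full depth at least 6 of them were found in 29 of 68 knockout cells and 17 of 192 control cells. At 2000 UMIs at least 4 were found in 26 of 48 knockout cells (54.2%) and 4 of 181 control cells (2.21%). Because the 12 were picked for high ratios in these same cells, a gap between the libraries was built in. The counts are a description and support nothing.

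**Figure D3:**
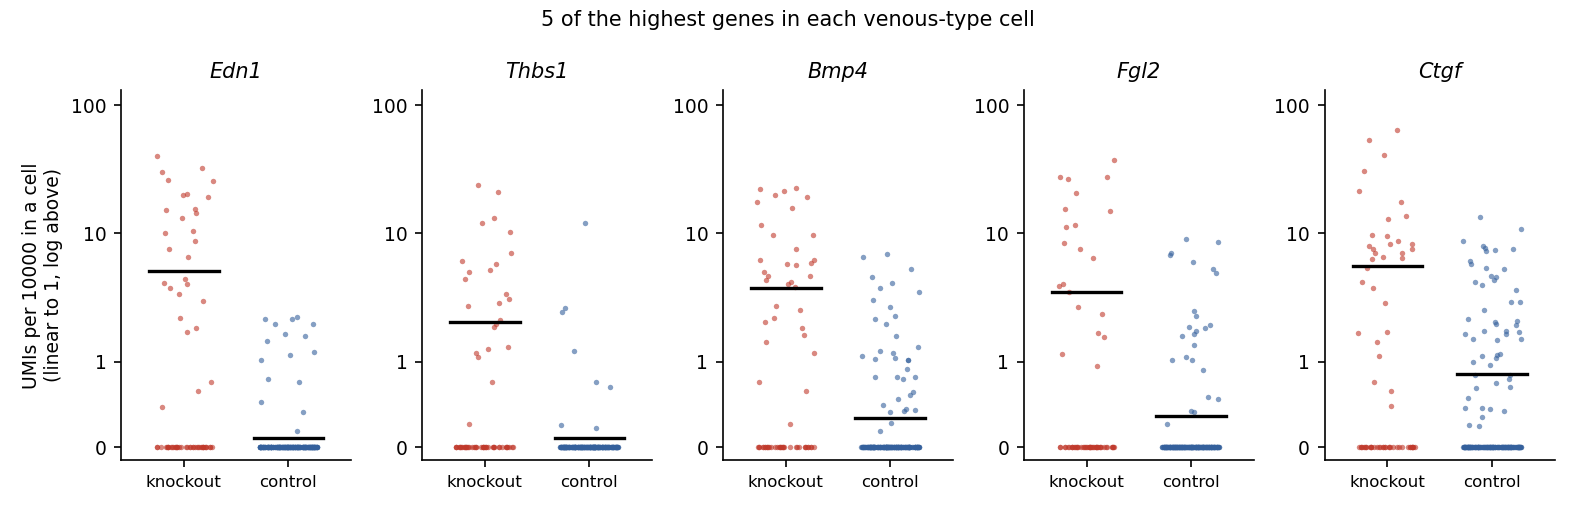
UMIs per 10000 of Edn1, Thbs1, Bmp4, Fgl2 and Ctgf in each venous-type cell, on an axis linear to 1 and logarithmic above, knockout left of control, with a bar at the mean over cells. The highest Edn1 value is 39.9 in the knockout and 2.23 in the control library, whereas Thbs1 has a control cell at 12.1 among mostly negative control cells.

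The proximal promoters of Edn1, Fgl2 and Selp are shown because each holds a match to 1 of the motifs searched, each with 250 bases before and 50 after the start in GRCm38.p6 from RefSeq. Capitals mark matches to motifs searched on both strands: the AP-1 motif TGANTCA and the GATA motif AGATAA, which were chosen after the expression data had been seen. The AP-1 motif is found in 2565 of 32851 promoters of that length (7.81%) and the GATA motif in 3672 (11.2%). The Edn1 promoter at chr13:42301226-42301525, plus strand, holds the GATA motif at bases 259 to 264, read on the minus strand as TTATCT here. The Fgl2 promoter at chr5:21372423-21372722, plus strand, holds AP-1 at bases 235 to 241, and the Selp promoter at chr1:164115014-164115313, plus strand, at bases 112 to 118.
Edn1: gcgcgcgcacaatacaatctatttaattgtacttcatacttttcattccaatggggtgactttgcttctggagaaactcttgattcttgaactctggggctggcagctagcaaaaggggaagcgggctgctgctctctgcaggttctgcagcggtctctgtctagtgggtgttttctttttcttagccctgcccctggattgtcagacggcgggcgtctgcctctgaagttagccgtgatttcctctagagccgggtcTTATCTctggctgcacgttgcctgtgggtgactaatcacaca
Fgl2: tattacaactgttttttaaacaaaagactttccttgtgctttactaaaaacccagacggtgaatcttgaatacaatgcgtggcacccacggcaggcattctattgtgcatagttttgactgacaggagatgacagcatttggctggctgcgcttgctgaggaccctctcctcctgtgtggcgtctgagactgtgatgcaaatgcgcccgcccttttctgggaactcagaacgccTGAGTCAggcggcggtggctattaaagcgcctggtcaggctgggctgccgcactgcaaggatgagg
Selp: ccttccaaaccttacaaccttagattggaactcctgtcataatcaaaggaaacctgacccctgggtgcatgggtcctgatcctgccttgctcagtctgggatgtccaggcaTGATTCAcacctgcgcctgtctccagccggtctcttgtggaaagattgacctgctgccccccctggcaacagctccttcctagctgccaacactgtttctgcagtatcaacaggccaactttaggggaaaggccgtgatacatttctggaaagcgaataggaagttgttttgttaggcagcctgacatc
Of the 12 highest genes 9 had a promoter in the table, and 1 of these (Fgl2) held the AP-1 motif and 1 (Edn1) the GATA motif. Of the 12 lowest genes all 12 had one, with the AP-1 motif in 0 and the GATA motif in 1. These counts are a description of letters in a window and not of sites in use.

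The 12 highest genes of venous cells were also read in the other classes. In capillary-type cells 9 of the 12 were at least 1.5-fold higher in knockout and 0 lower, and 2 had no UMI in either library, with a background of 12.6% higher and 16.2% lower among 4154 genes. In arterial-type cells 4 were higher and 6 lower, with a background of 9.43% higher and 9.96% lower among 3807 genes. The 6 lower genes had few UMIs there, at most 5 in knockout and 31 in control (Ctgf), and all 6 intervals included 1. The background genes passed a minimum of UMIs that these 6 did not reach, so these calls cannot be weighed against it. Higher calls in capillary-type cells also fell short of that minimum for Casp4 (4 UMIs in knockout, 7 in control) and Bmp6 (8 in knockout, 12 in control). The same held there for Fbln5 (19 in knockout, 7 in control) and Neat1 (23 in knockout, 13 in control). In arterial-type cells it held for the higher call of Bmp6 (17 in knockout, 29 in control). These calls cannot be weighed against the background either. Over the 12 genes, the interval lay above 1 for 7 in capillary-type and 4 in arterial-type cells. It lay below 1 for 0 in capillary-type and 1 (Edn1) in arterial-type cells. In non-endothelial cells 5 were higher and 3 lower, with a background of 7.63% higher and 8.18% lower among 13716 genes. All 12 were at least 1.5-fold higher in both leading-marker subsets of the venous cells and under every alternative setting tried. The subsets and settings reuse the cells whose ratios picked the 12, so this is a description and adds no support. Some subset counts were small: in cells led by Aplnr or Slco2a1 Bmp6 had 4 UMIs in knockout and 2 in control.

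**Figure D4:**
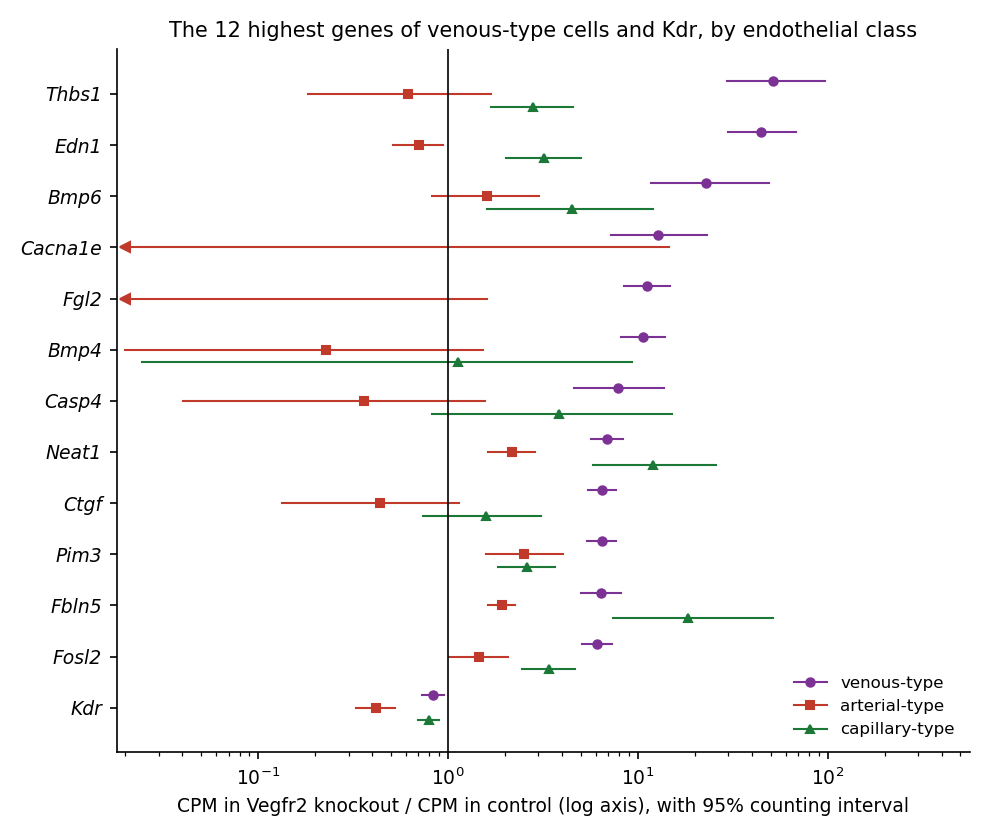
Knockout over control ratio of the 12 highest genes and Kdr in venous-type, arterial-type and capillary-type cells on a log axis, with exact 95% counting intervals and an arrow where a class has 0 UMIs in knockout (no point is drawn where both libraries have 0). Edn1 stands at 44.5 in venous-type, 0.704 in arterial-type and 3.22 in capillary-type cells.

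Of the 12 lowest genes 2 belong to the cell cycle list and 2 are capillary genes of the rule. Knstrn, a kinetochore and spindle protein, had 0 UMIs in knockout and 68 in control, so with a floor of 3 counts over the knockout class (6.37 CPM) it was at least 4.13-fold lower. Cep55, which acts in the final cut between daughter cells, had 0 UMIs in knockout and 65 in control (at least 3.95-fold lower), Ncapg, a condensin subunit, 0 in knockout and 63 in control (at least 3.83-fold), and Cdca3 0 in knockout and 56 in control (at least 3.4-fold). Pclaf, a PCNA-binding replication factor, had 2 UMIs in knockout and 284 in control, a ratio of 0.0386 (0.00466 to 0.141). Uhrf1, which maintains DNA methylation at replication, and Slfn9 each had 1 UMI in knockout and 128 in control. The remaining genes were Ckap2l, Rad51ap1, Ccnb2 and the capillary rule genes Adamtsl2 and Col13a1, whose low level the rule itself favours. UMIs of the 12 were few in arterial-type cells, where the interval of the ratio lay below 1 for 3 of them and above 1 for 0. In capillary-type cells it lay below 1 for 2 and above 1 for 0. Those 2 were the rule genes Adamtsl2 (12 UMIs in knockout, 247 in control) and Col13a1 (38 in knockout, 386 in control), which helped to sort the classes. The remaining genes of the 12 had few UMIs there. In non-endothelial cells the interval lay below 1 for 10 of the 12 and above 1 for 0. There 6 were at least 1.5-fold lower in knockout, with a background of 8.18% lower among 13716 genes.

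Genes of the cell cycle list were lower as a group. Of its 32 measured members out of 36, 31 were at least 1.5-fold lower in knockout venous cells and 0 higher, with a median log2 ratio of −1.92. The median was −1.46 in arterial-type, −1.45 in capillary-type and −0.53 in non-endothelial cells. Top2a, the topoisomerase of dividing cells, stood at 23.4 CPM in 7 knockout cells and at 174 CPM in 34 control cells, a ratio of 0.134 (0.0665 to 0.242). Hmgb2, a chromatin protein high in cycling cells, stood at 276 CPM in knockout and 848 CPM in control (ratio 0.326, 0.271 to 0.389), and Stmn1, a microtubule regulator, at 140 CPM in knockout and 367 CPM in control (ratio 0.382). H2afz, a histone variant, stood at 455 CPM in knockout and 655 CPM in control, short of the 1.5-fold limit.

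The summed control levels rested on few deep cells. Cells with at least 3 UMIs over 7 mitotic genes were 5 of 68 in knockout (7.35%, 2.43 to 16.3%) and 32 of 192 in control (16.7%, 11.7 to 22.7%). They had median depths of 3291 UMIs in knockout and 22505 in control, against 4747 in knockout and 9232 in control for the other venous cells, and held 13.3% of venous UMIs in knockout and 31.8% in control. After thinning, cells with at least 1 UMI of these genes were 5 of 48 in knockout (10.4%, 3.47 to 22.7%) and 29 of 181 in control (16%, 11 to 22.2%), so a difference in the share of cycling cells was not detectable at this depth. Top2a itself was found in 8.33% of knockout and 8.29% of control venous cells after thinning, against 5.31% of knockout and 6.75% of control non-endothelial cells. Without the cells above the limit of 3 UMIs, Top2a had a ratio of 2.16 and Stmn1 of 1.04, and the list's median was −0.45. In control, cycling genes were carried mainly by cells led by Aplnr or Slco2a1, which held 446 Top2a UMIs, against 4 in cells led by Vwf or Selp. In knockout these subsets held 11 and 0.

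Brakes on division and p53 targets leaned the other way, with 8 of 17 measured members at least 1.5-fold higher and 2 lower and a median log2 ratio of 0.56. Cdkn1a, the CDK inhibitor p21, stood at 423 CPM in 17 knockout cells and 39.1 CPM in 39 control cells, a ratio of 10.8 (8.47 to 13.9). Of the 199 knockout Cdkn1a UMIs 73 lay in 1 cell, and without it the ratio was 7.25. The thinned share of venous cells with Cdkn1a was 22.9% in knockout and 5.52% in control, below the 24.7% and 12% of non-endothelial cells in knockout and control. Btg2, an antiproliferative target of p53, stood at 593 CPM in knockout and 314 CPM in control (ratio 1.89), and Gadd45g at 280 CPM in knockout and 161 CPM in control (ratio 1.74), which was 0.620 among cells led by Aplnr or Slco2a1.

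Of the venous list, 7 of 12 measured genes were at least 1.5-fold higher in knockout and 1 lower, with a median log2 ratio of 0.79, against −0.25 in arterial-type, −0.55 in capillary-type and −0.14 in non-endothelial cells. Bgn, the proteoglycan biglycan, stood at 501 CPM in knockout and 155 CPM in control, a ratio of 3.23 (2.74 to 3.80). Il6st, the shared receptor of interleukin-6 cytokines, stood at 425 CPM in knockout and 194 CPM in control (ratio 2.20), and the ratio of Nrp2 was 1.85 (1.62 to 2.1). In control, Bgn and Il6st did not mark venous cells, at 0.693 and 1.10 times the larger of the other endothelial classes. Ackr1 had a ratio of 5.66 (3.95 to 8.11), in 19 knockout and 28 control cells, and a thinned share of 25% in knockout and 3.31% in control, against 1.19% of knockout and 0.714% of control non-endothelial cells. The list's median fell short of this within the subsets, at 0.32 in cells led by Vwf or Selp and 0.12 in cells led by Aplnr or Slco2a1.

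Genes for leukocyte capture went both ways, with 4 of 16 measured members at least 1.5-fold higher, 5 lower and a median log2 ratio of −0.11. Icam1, the integrin ligand on which leukocytes arrest, stood at 648 CPM in 38 knockout cells and 293 CPM in 95 control cells, a ratio of 2.21 (1.93 to 2.53). Sele, E-selectin, which slows leukocytes at inflamed venules and was added after its values were seen, stood at 355 CPM in 16 knockout cells and 165 CPM in 56 control cells, a ratio of 2.16 (1.79 to 2.58). The cell with most Sele UMIs held 31.7% of them in knockout and 30.8% in control. For Icam1 that cell held 31.5% in knockout and 23.6% in control. Within cells led by Vwf or Selp both were level, with ratios of 1.01 for Icam1 and 0.989 for Sele, and among cells with Y-linked UMIs alone the ratios were 0.893 and 0.876. Podxl, a sialomucin of the luminal surface, was lower at 217 CPM in knockout and 375 CPM in control (ratio 0.577, 0.466 to 0.708), and Icam2, a constitutive adhesion molecule, at 151 CPM in knockout and 283 CPM in control (ratio 0.532, 0.411 to 0.680). Cd34, a further sialomucin, stood at 520 CPM in knockout and 666 CPM in control.

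Of the genes for Weibel-Palade body cargo and release, 4 of 12 measured members, Edn1 among them, were higher and 1 lower, with a median log2 ratio of 0.32. Cd63, a tetraspanin of the bodies, stood at 91.3 CPM in knockout and 58.8 CPM in control (ratio 1.55, 1.08 to 2.19), and Ap1g1, an adaptor subunit for their formation, at 40.4 CPM in knockout and 61.9 CPM in control, with an interval that included 1 (0.382 to 1.05). Of the coagulation and fibrinolysis genes 6 of 15 measured members, Thbs1 among them, were higher and 0 lower, with a median of 0.49 in venous, −0.09 in arterial-type and 0.17 in capillary-type cells, and of −0.09 in venous cells thinned after the rule. F8, coagulation factor VIII, which endothelium makes, stood at 125 CPM in knockout and 77.0 CPM in control (ratio 1.63, 1.20 to 2.19). The F8 ratio fell below 1 in cells thinned before the rule (0.907), in cells with Xist alone (0.912) and in cells led by Aplnr or Slco2a1 (0.649). Prostaglandin and nitric oxide genes had 1 of 7 measured members higher (Edn1) and 2 lower, with Ptgs1, cyclooxygenase-1, at 106 CPM in knockout and 178 CPM in control (ratio 0.598, 0.437 to 0.802) and the endothelin receptor gene Ednrb at 68.0 CPM in knockout and 110 CPM in control (ratio 0.618). Ece1, the enzyme that releases mature endothelin, stood at 395 CPM in knockout and 281 CPM in control.

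Of 9 measured genes of the VEGF family 1 (Nrp2) was at least 1.5-fold higher and 1 (Flt4) lower, with a median log2 ratio of −0.11. Flt1, the decoy receptor VEGFR1, stood at 1085 CPM in knockout and 1209.6 CPM in control (ratio 0.897, 0.816 to 0.986). Flt4, the VEGF-C receptor VEGFR3, stood at 29.7 CPM in knockout and 57.7 CPM in control (ratio 0.516, 0.275 to 0.893), and at a ratio of 1.31 among cells led by Vwf or Selp. Of the tip and sprouting list 5 of 16 were higher and 3 lower, including Pdgfb, which recruits pericytes, at 314 CPM in knockout and 141 CPM in control (ratio 2.23, 1.83 to 2.70), and Igf1r at 234 CPM in knockout and 105 CPM in control (ratio 2.24). Nid2, a basement membrane nidogen on the same list, stood at 89.2 CPM in knockout and 169 CPM in control (ratio 0.529), with 45.2% of its knockout UMIs in 1 cell. In the angiopoietin group of 3 measured genes, Ptprb, the phosphatase that restrains TIE2, stood at 1512 CPM in knockout and 859 CPM in control (ratio 1.76, 1.62 to 1.92), and Tek, which encodes TIE2, at 187 CPM in knockout and 287 CPM in control (ratio 0.651, 0.516 to 0.813). The Ptprb ratio was 1.08 among cells led by Vwf or Selp and 1.32 among the others.

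Notch genes had 3 of 11 measured members higher and 1 lower, with Jag1, a ligand, at 170 CPM in knockout and 69.3 CPM in control (ratio 2.45, 1.86 to 3.21) and Notch4 at 31.9 CPM in knockout and 64.6 CPM in control (ratio 0.493, 0.270 to 0.837). Rbpj, the transcription factor of the pathway, stood at 91.3 CPM in knockout and 54.6 CPM in control (ratio 1.67). The arterial list without rule genes had 5 of 12 higher, Edn1 and Fbln5 among them, and 3 lower. Eln, elastin, stood at 1510 CPM in knockout and 306 CPM in control, a ratio of 4.94 (4.46 to 5.47), with 37.0% of its knockout UMIs in 1 cell and a ratio of 3.18 without that cell. Ltbp4, which binds latent TGF-beta to elastic fibres, went against it at 51.0 CPM in knockout and 256 CPM in control (ratio 0.199, 0.127 to 0.299). Of the BMP and TGF-beta signalling genes 5 of 17 were higher and 1 lower, with a median of 0.50 in venous cells, 0.39 in cells led by Vwf or Selp and −0.11 in cells led by Aplnr or Slco2a1. Tgfbr3, the co-receptor betaglycan, stood at 208 CPM in knockout and 67.7 CPM in control (ratio 3.07, 2.37 to 3.96), Smad7, the pathway's inhibitor, at 316 CPM in knockout and 180 CPM in control (ratio 1.76, 1.46 to 2.12), and Id3, a BMP target, at 922 CPM in knockout and 654 CPM in control.

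Immediate early and heat shock genes, which dissociation also induces, were higher as a group: 18 of 21 measured members in knockout, with 1 lower and a median log2 ratio of 0.99. The median was 0.44 in arterial-type, 0.78 in capillary-type and 0.44 in non-endothelial cells, so it was above 0 in all 4 classes. Junb, a subunit of AP-1, stood at 1850 CPM in knockout and 696 CPM in control (ratio 2.66, 2.45 to 2.88), and Jun at 1434 CPM in knockout and 881 CPM in control (ratio 1.63). Their part in the differences of other genes was not tested. Hypoxia and glycolysis genes had 8 of 19 measured members higher and 0 lower, with a median of 0.51 in venous, 0.27 in arterial-type, 0.51 in capillary-type and 0.69 in non-endothelial cells. Ndrg1, a hypoxia-induced gene, stood at 399 CPM in knockout and 184 CPM in control (ratio 2.17), Ddit4, a stress-induced inhibitor of mTOR, at 302 CPM in knockout and 157 CPM in control (ratio 1.92), Aldoa, a glycolytic aldolase, at 246 CPM in knockout and 139 CPM in control (ratio 1.77), and Gapdh at 667 CPM in knockout and 567 CPM in control. Of the knockout Ddit4 UMIs 38.0% lay in 1 cell.

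**Figure D5:**
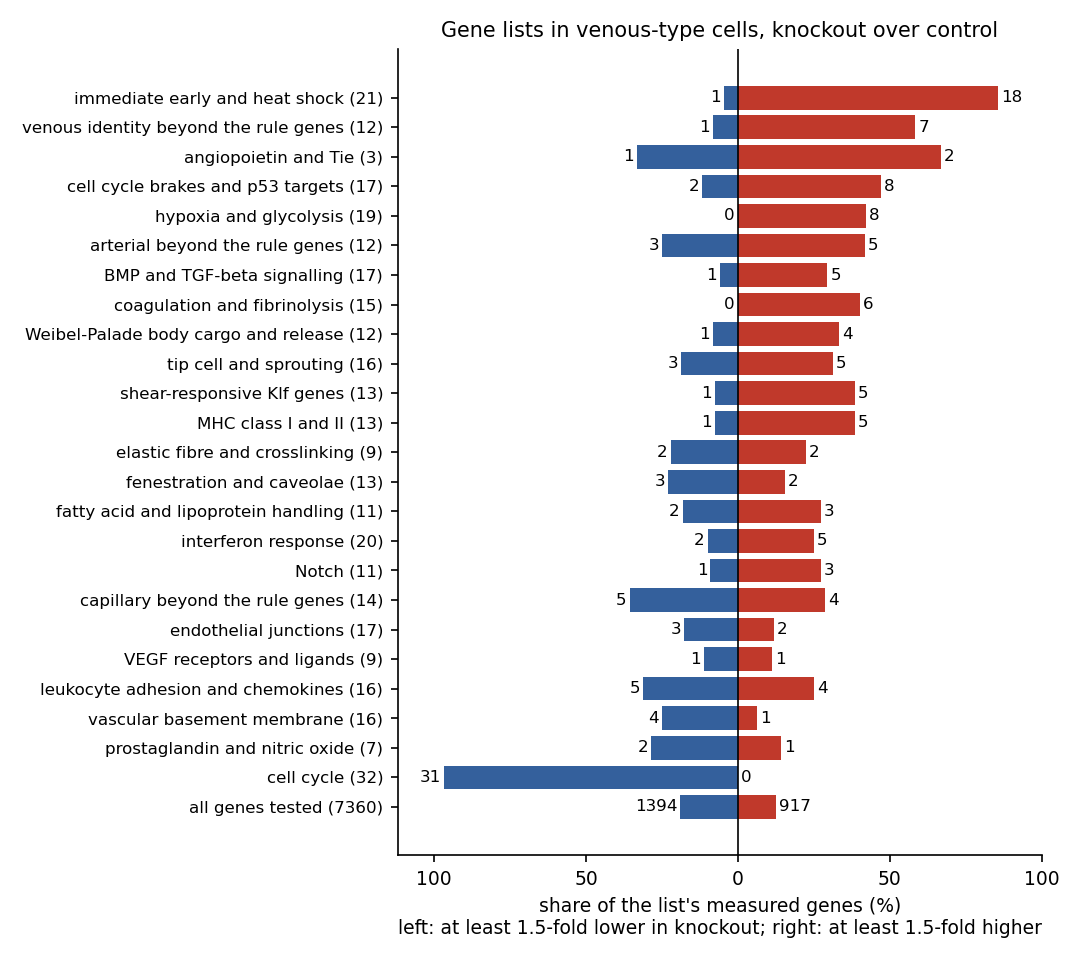
Share of each list's measured genes at least 1.5-fold lower (left) or higher (right) in knockout venous-type cells, with the number of genes at each bar and the number measured in parentheses. Cell cycle genes stand out on the lower side with 31 of 32 and immediate early genes on the higher side with 18 of 21, beside 18.9% lower and 12.5% higher among all genes.

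Genes of capillary exchange and barrier were mixed. The capillary list without rule genes had 4 of 14 higher and 5 lower, with Plvap, the protein of fenestral diaphragms, at 607 CPM in knockout and 920 CPM in control (ratio 0.660, 0.582 to 0.747) and Aqp1, a water channel, at 890 CPM in knockout and 367 CPM in control (ratio 2.43, 2.16 to 2.72). Rgcc, a cell cycle regulator high in capillaries, stood at 438 CPM in knockout and 217 CPM in control (ratio 2.02), with 37.4% of its knockout UMIs in 1 cell. The fenestration and caveolae list had 2 of 13 higher and 3 lower, with Cav1, the caveolar coat protein, at 790 CPM in knockout and 651 CPM in control. Junction genes had 2 of 17 higher and 3 lower, close to the background, with Jup, plakoglobin, at 123 CPM in knockout and 234 CPM in control (ratio 0.527, 0.395 to 0.691) and Ctnnb1, beta-catenin, at 525 CPM in knockout and 652 CPM in control. Basement membrane genes had 1 of 16 higher and 4 lower, with Sparcl1, a matricellular protein, at 2509 CPM in knockout and 1110 CPM in control (ratio 2.26) and Col15a1 at 157 CPM in knockout and 275 CPM in control (ratio 0.572). Of the knockout Col15a1 UMIs 32.4% lay in 1 cell. Elastic fibre and crosslinking genes had 2 of 9 higher and 2 lower. Lipid handling genes had 3 of 11 higher and 2 lower, with the cholesterol exporter Abca1 at 529 CPM in knockout and 151 CPM in control (ratio 3.50, 2.98 to 4.12).

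Flow-responsive genes of the Klf list had 5 of 13 higher and 1 lower, with Klf6 at 442 CPM in knockout and 201 CPM in control (ratio 2.20), S1pr1, the sphingosine receptor that steadies junctions, at 338 CPM in knockout and 199 CPM in control (ratio 1.69), and Klf2 at 622 CPM in knockout and 809 CPM in control. Interferon response genes had 5 of 20 higher and 2 lower, with a median of 0.04, and Iigp1, an interferon-induced GTPase, at 212 CPM in knockout and 59.2 CPM in control (ratio 3.59, 2.76 to 4.64). Of the MHC genes 5 of 13 were higher and 1 lower. Cd74, the class II invariant chain, stood at 123 CPM in knockout and 36.8 CPM in control, but its thinned share of 16.7% of knockout and 4.97% of control venous cells lay below the 40.2% and 27.6% of non-endothelial cells in knockout and control. Non-endothelial cells include leukocytes, and the source of these UMIs was not tested. The class II genes H2-Aa and H2-Eb1 had ratios of 2.74 and 2.88. B2m, the class I light chain, stood at 372 CPM in knockout and 472 CPM in control.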

How the data were processed

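The authors deposited filtered tables of UMI counts per gene and barcode, raw and not normalised, for 31053 genes: 2563 barcodes with 17277162 UMIs in knockout and 3487 barcodes with 35918862 UMIs in control. Per the labels' protocols, pulp was digested, sorted for propidium iodide-negative cells and run on the Chromium platform. Per the file headers the knockout table was written by Cell Ranger 6.0.1 and the control table by Cell Ranger 5.0.0, whereas the submitters' processing notes name 6.0.1 and the build mm10 for both. The effect of the versions was not tested. Gene positions came from the GRCm38 annotation, and promoters from RefSeq.

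Members were taken by the rule, their UMIs were summed per library and class, and sums were scaled to CPM. Ratios carry exact conditional intervals for 2 Poisson rates and shares carry Clopper-Pearson intervals. The ratio calculation was tested on simulated data. Genes had at least 50 UMIs over both libraries, and those past 1.5-fold are called higher or lower. Doublets stayed in: Scrublet, at 0.8% per 1000 cells, marked 4 knockout and 20 control barcodes (0.238% and 0.859%), with 0 knockout and 1 control venous cell among them.

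The 12 highest and 12 lowest genes were those with the most extreme ratios among genes found in at least 10 cells of the higher library, with at most 25% of its UMIs in 1 cell and at least 0.5 times the CPM of its non-endothelial cells. Mitochondrial, ribosomal protein, haemoglobin and Y-linked genes and Xist and Tsix were left out, while other X-linked genes stayed in. Genes that mark venous cells were the 12 with the highest smaller ratio of the 2 libraries. From each list up to 4 members were named: the 3 past 1.5-fold with most UMIs and the next by UMIs. A gene that this rule names is not reported here. The members and the 31 lists were chosen with earlier results of these data known. 20 alternatives were computed, 5 of them added after the data had been seen. Tools were Python 3.11.15, numpy 2.4.6, scipy 1.17.1, pandas 2.3.3, scanpy 1.11.5, anndata 0.12.19 and matplotlib 3.10.9.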

Additional observations from a re-analysis of the deposited data

How the results depend on the processing

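No paired analysis was possible because each genotype has 1 library. Of 2249 pairs of a named gene and a setting, 1726 stayed within the counting interval, 500 moved beyond it and 23 changed direction. Of 493 list medians 25 moved beyond their spread and 65, from 16 lists, had the other sign. They include coagulation (0.49, and −0.09 thinned after the rule), BMP and TGF-beta (0.50, and −0.11 in cells led by Aplnr or Slco2a1), basement membrane (−0.25, and 0.30 in cells led by Vwf or Selp) and the Klf list (0.21, and −0.20 in the same cells). The venous share of endothelial cells kept a knockout over control ratio of 0.780 to 1.20, and that of all kept cells 0.366 to 0.578, lowest with at least 3000 UMIs per cell. Thinning to 2000 UMIs before the rule left 1577 genes, with 229 higher, 248 lower, 72 above the other endothelial classes and a Kdr ratio of 0.991. Thinning after the rule left 1652 genes, with 270 higher, 293 lower and 68 above the other classes. Cells with Y-linked UMIs alone gave 437 higher, 455 lower, 105 above the other classes and a Kdr ratio of 0.662. Cells led by Vwf or Selp gave 503 higher and 479 lower, and a 2-fold limit 328 higher, 574 lower and 121 above the other classes. These lower counts come with fewer cells, fewer UMIs or a stricter limit. A minimum of 20 UMIs tested 9702 genes and gave 2232 lower. The Kdr ratio was 1.07 in cells led by Aplnr or Slco2a1.

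Ratios that changed side of 1 were these, and the cause was not tested. Thinning before the rule gave 1.49 for Ap1g1, 0.907 for F8, 0.992 for Rbpj and 0.680 for H2-Aa, and thinning after it 1.55 for Ap1g1. Without the 5 deepest cells of each library Ddit4 stood at 0.792, and in cells with Xist alone F8 at 0.912. In cells with Y-linked UMIs alone Icam1 stood at 0.893, Ap1g1 at 1.47, Smad7 at 0.889, Gadd45g at 0.891, Jun at 0.908 and Sele at 0.876. Without cells with 3 or more mitotic UMIs Stmn1 stood at 1.04 and Top2a at 2.16. In cells led by Vwf or Selp Flt4 stood at 1.31, Col15a1 at 1.29 and Sele at 0.989. In cells led by Aplnr or Slco2a1 F8 stood at 0.649, Nid2 at 1.02, Rgcc at 0.647, Gadd45g at 0.620 and Iigp1 at 0.770. The median of the cell cycle list ranged from −2.80 to −0.45, that of immediate early genes from 0.11 to 1.18 and that of the venous list from 0.12 to 1.11. With 68 knockout cells, genes under a few CPM are below what these libraries resolve.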
